A study of Mus musculus with 10 samples.

Results

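The genes described are the nuclear-encoded subunits of the mitochondrial respiratory chain, taken from the deposited count table by symbol. Members were the rows whose symbols begin with Nduf followed by a, b, c, s or v and a number, with Uqcr, with Cox and a number from 4 to 8, or with Atp5, together with Sdha, Sdhb, Sdhc and Sdhd. Assembly factors (Ndufaf) and symbols containing -ps were left out. This gave 89 of the 55401 rows, with 40 in complex I, 4 in complex II, 8 in complex III, 19 in complex IV and 18 in complex V.

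The respiratory chain sits in the inner mitochondrial membrane. Complexes I and II take electrons from NADH and succinate, complex III passes them to cytochrome c, complex IV hands them to oxygen, and complex V (ATP synthase) uses the proton gradient built along the way to make ATP. Most subunits are encoded in the nucleus, a smaller set in the mitochondrial genome, and some nuclear subunits have a second gene that is used in muscle, fat, testis or cells adapted to low oxygen.

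The study asked what sub-chronic variable stress (SCVS) does to the lymphatic endothelial cells (LECs) of the meninges. Female C57BL/6 mice (C57BL/6J in the paper) 3 months old were not stressed (naive) or went through 6 days of SCVS. In SCVS, foot shock, tail suspension and restraint alternate. Cells were released from the dura by enzymes in the presence of actinomycin D, a transcription inhibitor, and sorted as CD45-negative, CD31-positive and podoplanin-positive. RNA from each pool of 3 to 4 animals was amplified and sequenced, with 5 pools per group. Total counts per replicate were 10421467 to 13975282 in naive mice and 9984743 to 14094155 in SCVS mice. Counts were scaled to a total of 1000000 per replicate (CPM), at which 3 counts, the floor used for detection, were worth 0.213 to 0.3005 CPM. Reads carried no molecular identifiers, and the floor covers counting error only. The intervals given with the fitted changes came from 5 pools per group and include the spread between pools.

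The label of the cells was first checked against markers. All 6 lymphatic genes looked at (Prox1, Lyve1, Flt4, Pdpn, Mmrn1 and Ccl21a) were found and tested. Their summed level was 60.4, 2421, 893, 1049 and 184 CPM in Naive 1 to 5 and 1172, 1072, 2717, 2898 and 379.9 CPM in SCVS 1 to 5, with Mmrn1 the most abundant in the group means and Flt4 in Naive 1. Prox1, the transcription factor that sets lymphatic identity, had 0 counts in Naive 1 and 2 in SCVS 5, and Pdpn, the gene of the sorted surface protein podoplanin, had 0 counts in Naive 1. The 5 blood endothelial genes (Flt1, Plvap, Cldn5, Sox17 and Vwf, with Plvap the most abundant) summed to 5678, 3682, 5729, 5707 and 291.5 CPM in naive and 4605, 7550, 2255, 3664 and 3108 CPM in SCVS replicates. Lyve1, a surface receptor of lymphatic endothelium, had 2 counts in Naive 1 and 1 in Naive 5. At least 1 lymphatic gene was therefore under the floor of 3 counts in Naive 1, Naive 5 and SCVS 5, all labelled as LECs, while Flt4, Mmrn1 and Ccl21a were above it in every replicate. Of the blood endothelial genes, Flt1 and Plvap were above the floor in every replicate, while Cldn5, Sox17 and Vwf had 2, 0 and 0 counts in Naive 5 and were above it elsewhere. In such bulk samples, fewer cells of a type and less RNA per cell cannot be told apart.

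Naive 5, SCVS 3 and SCVS 4 stood apart in the genes studied here. The summed level of the 89 subunit genes was 16609, 15859, 15717, 16767 and 25624 CPM in Naive 1 to 5 and 18388, 16047, 20523, 13786 and 18693 CPM in SCVS 1 to 5. Naive 5 was the highest of all replicates and SCVS 4 the lowest, and the groups overlapped. The sum was 18115 ± 4222 CPM (SD, n = 5) in naive and 17488 ± 2610 CPM (SD, n = 5) in SCVS mice, or 1.81% and 1.75% of all counts. Without Naive 5, the naive value was 16238 ± 526.6 CPM (SD, n = 4), and the log2 ratio of SCVS to naive moved from -0.05 to 0.11. Of the 74 subunit genes with a mean of at least 20 CPM over all replicates, 41 were highest in Naive 5 and 21 in SCVS 3, while 35 were lowest in SCVS 4.

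Naive 5 also differed in its cell type markers. The 5 endothelial genes Pecam1, Cdh5, Kdr, Tek and Emcn, all detected, summed to 428.1 CPM there and to 5273, 4700, 6486 and 3737 CPM in Naive 1 to 4, with Emcn the most abundant. The 5 neural and glial genes, led by Mbp in the group means and by Snap25 in Naive 5, summed to 3045 CPM in Naive 5 and to 522.8, 164.6, 220.7 and 888.9 CPM in the other naive replicates, and to 279.5, 111.6, 50.5, 1543 and 1769 CPM in SCVS 1 to 5. In SCVS 4, where the subunit genes were lowest, the 6 leukocyte and macrophage genes, led by Lyz2, summed to 4070 CPM, against 192.5, 133.2, 774.9 and 237.9 CPM in SCVS 1, 2, 3 and 5 and 0.576, 149.8, 19.5, 555.4 and 58.7 CPM in Naive 1 to 5. The sort would remove leukocytes by CD45, and fibroblasts, mural cells, neurons and glia by the need for CD31. The 5 fibroblast genes, led by Dcn, summed to 725.3, 1318, 700.5, 423.5 and 50.9 CPM in naive and 18.5, 82.5, 157.1, 140.7 and 1500 CPM in SCVS replicates. The 6 erythroid genes, led by Hba-a1, summed to at most 46.7 CPM in naive replicates and to 125.4, 29.2, 29.7, 10.9 and 4915 CPM in SCVS 1 to 5. The part of these other cells in the levels of the subunit genes was not tested.

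Across the whole chain, no subunit gene passed the test of SCVS against naive mice. Of the 89 genes, 83 were tested, each with over 5 counts in 3 or more replicates of the 10. In edgeR's quasi-likelihood test, 0 of the 83 had an adjusted p under 0.1, where the same test called 0% of all 14815 genes tested. At an unadjusted p under 0.05 edgeR gave 0 of the 83 and 460 of all genes. DESeq2, which gave a p for 82 of the 83, Cox8b excepted, and for 13998 of all genes, called 0 of the 82 and 114 of all, and limma with voom called 0 of the 83 and 2 of all. At an unadjusted p under 0.05, DESeq2 gave 0 of the 82 and 661 of all genes, and limma with voom 1 and 736. The fitted level was higher in SCVS for 27 subunit genes and lower for 56, against 7137 and 7678 of all genes. The median log2 fold change was -0.07 for the subunit genes and -0.03 for all genes, and the former turned to 0.09 without Naive 5 and to 0.02 without SCVS 4. For the 74 genes with a mean of at least 20 CPM, log2 fold changes lay between -0.61 and 0.64, and the median distance from the estimate to either end of its 95% interval was 0.74.

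**Figure D1:**
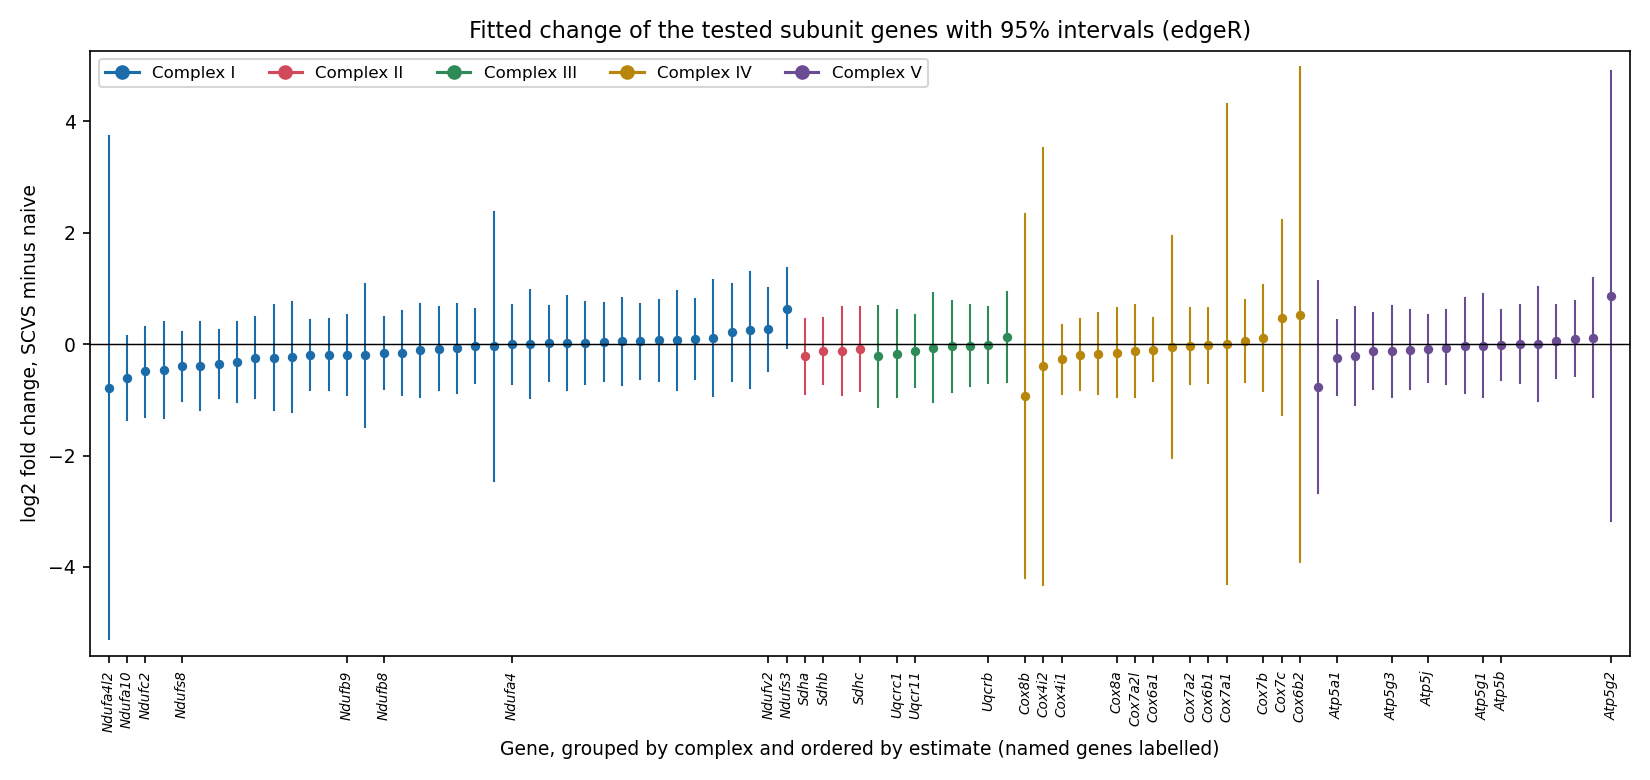
Fitted log2 fold change (SCVS minus naive, y axis) of the 83 tested subunit genes, grouped by complex and ordered by estimate along the x axis with the named genes labelled, from edgeR with 5 replicates per group. Points are estimates and lines 95% intervals; every interval spans 0, and the widest belong to second isoforms such as Cox6b2, Cox7a1 and Ndufa4l2.

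Complex I, the NADH dehydrogenase, was represented by 40 rows, of which 38 were tested. Its summed level was 6464, 5939, 5694, 6532 and 9561 CPM in Naive 1 to 5 and 7141, 6199, 7788, 4967 and 6769 CPM in SCVS 1 to 5. Naive 5 lay above every other replicate and SCVS 4 below, and the remaining naive replicates fell within the SCVS range. The means were 6838 ± 1562 and 6573 ± 1067 CPM (SD, n = 5 each), a log2 ratio of -0.06, or 0.09 without Naive 5. Of the 38 genes, 15 had a higher and 23 a lower fitted level in SCVS, with a median log2 fold change of -0.08.

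Ndufs3, a subunit of the hydrophilic arm that carries electrons from NADH, was the subunit gene with the smallest p. It reached 98.8, 109, 50.5, 89.1 and 128 CPM in Naive 1 to 5 and 136.5, 167, 170.5, 140 and 151 CPM in SCVS 1 to 5. All SCVS replicates lay above all naive replicates, with the lowest naive value in Naive 3. The mean was 95.1 ± 28.9 CPM in naive and 153 ± 15.5 CPM after SCVS (SD, n = 5 each). The log2 fold change was 0.64 with a standard error of 0.33 (edgeR, unadjusted p = 0.0735 and adjusted p = 1), and it stayed between 0.48 and 0.78 when each replicate was left out in turn. With limma and voom the unadjusted p was 0.0367 and the adjusted p 0.99. Ndufs3 was the 1 of 83 subunit genes that was higher in SCVS with no overlap between groups, against 0.445% of all genes tested, and 0 were lower in this way, against 0.182%. Without Naive 5 these counts were again 1 and 0, against 0.796% and 0.533% of all genes, and without SCVS 4 they were 1 and 0, against 0.83% and 0.364%. An exon of Kbtbd4 on the opposite strand overlaps Ndufs3, so reads from the overlap cannot be assigned with certainty. Kbtbd4 itself had 16.3 ± 11.2 CPM in naive and 19.3 ± 12.6 CPM after SCVS (SD, n = 5 each).

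Ndufv2, which holds an iron-sulfur cluster of the NADH-binding module, had the next smallest p among the genes with a higher fitted level. It had 195, 252, 217.5, 205 and 323 CPM in Naive 1 to 5 and 304, 267, 506, 170 and 222 CPM in SCVS 1 to 5. SCVS 3 was highest and SCVS 4 lowest, so the SCVS replicates enclosed all naive ones. Its log2 fold change was 0.27 with a standard error of 0.34 (edgeR, unadjusted p = 0.45).

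The 3 genes with a lower fitted level and the smallest p were also in complex I. Ndufa10, an accessory subunit of the membrane arm, had 244, 124.5, 136, 191 and 287.5 CPM in Naive 1 to 5 and 178, 121, 136, 137 and 92.8 CPM in SCVS 1 to 5. Naive 1, Naive 4 and Naive 5 lay above all SCVS replicates, while Naive 2 and Naive 3 lay among them. The log2 fold change was -0.61 with a standard error of 0.34 (edgeR, unadjusted p = 0.102). Ndufs8, which carries iron-sulfur clusters on the path to ubiquinone, had 193, 142, 289.5, 201 and 220 CPM in naive and 146, 192, 159, 183 and 143 CPM in SCVS replicates. Naive 2 was the lowest value of all and the other naive replicates were above every SCVS replicate. Its log2 fold change was -0.40 with a standard error of 0.28 (edgeR, unadjusted p = 0.188), and -0.25 without Naive 3. Ndufc2, another accessory subunit of the membrane arm, had 133, 191.5, 187, 142 and 307 CPM in naive and 162, 105, 160, 80.5 and 192 CPM in SCVS replicates. Naive 5 was high and SCVS 4 low, with the groups overlapping. The fitted log2 fold change was -0.49 with a standard error of 0.37 (edgeR, unadjusted p = 0.205), and -0.25 without Naive 5.

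The complex I genes with the highest mean CPM were Ndufa4, Ndufb8 and Ndufb9. Ndufa4, named as a complex I subunit and since found in complex IV, had 365 ± 139 CPM in naive and 374 ± 97.7 CPM after SCVS (SD, n = 5 each), with a log2 fold change of -0.0033 and a standard error of 0.33. Ndufb8, a membrane-arm subunit often used as a marker of assembled complex I, had 359 ± 130 and 331 ± 52.4 CPM (SD, n = 5 each), with a log2 fold change of -0.16 and a standard error of 0.30. Ndufb9, a further accessory subunit, had 311 ± 105 and 282 ± 78.6 CPM (SD, n = 5 each), with a log2 fold change of -0.19 and a standard error of 0.33. For each of these genes Naive 5 gave the highest value of all replicates. Per kilobase of transcript, complex I genes with a mean of at least 20 CPM ranged from 47.1 CPM for Ndufs1, the largest iron-sulfur subunit, to 751.5 CPM for Ndufa4, with a median of 214 CPM.

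Complex II, the succinate dehydrogenase shared with the citric acid cycle, has no mitochondrially encoded subunit. Its 4 genes summed to 1416, 1358, 1219, 904 and 1644 CPM in Naive 1 to 5 and to 1071, 1355, 1119, 1183 and 1393 CPM in SCVS 1 to 5. The lowest and the highest values were both naive, Naive 4 and Naive 5. The means were 1308 ± 272.8 and 1224 ± 143 CPM (SD, n = 5 each), a log2 ratio of -0.10, which was -0.0001 without Naive 5. All 4 genes were tested and had lower fitted levels in SCVS, with log2 fold changes between -0.22 and -0.09.

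Sdha, the flavoprotein that oxidizes succinate, had 515.5, 520, 394, 247 and 444 CPM in Naive 1 to 5 and 259, 529, 253, 402 and 462 CPM in SCVS 1 to 5. SCVS 1, SCVS 3 and Naive 4 were low and the groups overlapped. Its log2 fold change was -0.22 with a standard error of 0.31 (edgeR, unadjusted p = 0.499), and -0.10 without SCVS 1. Sdhb, the iron-sulfur subunit, had 346 ± 81.1 and 326 ± 68.2 CPM (SD, n = 5 each), and Sdhc, which anchors the enzyme in the membrane, had 289 ± 116 and 282 ± 72.0 CPM (SD, n = 5 each). Sdhd, the second anchor, ranged from 120 to 330 CPM in naive and from 151 to 342.5 CPM in SCVS replicates. The genes did not share an order of replicates, with Sdhc highest in Naive 5 and Naive 1 and Sdhd highest in SCVS 3 and Naive 5.

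Complex III, the cytochrome bc1 complex, was represented by 8 genes, all of them tested. Their sum was 2117, 1674, 1865, 1726 and 2846 CPM in Naive 1 to 5 and 1939, 1688, 2414, 1679 and 2239 CPM in SCVS 1 to 5. Naive 5 was again the highest, and the lower naive and SCVS replicates lay side by side. The means were 2046 ± 479.3 and 1992 ± 328.9 CPM (SD, n = 5 each), a log2 ratio of -0.04, or 0.11 without Naive 5. Uqcrq was the 1 gene with a higher fitted level and 7 had a lower one, with log2 fold changes between -0.22 and 0.13.

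Uqcrc1, a core protein on the matrix side, had 471, 342, 425, 363 and 609 CPM in Naive 1 to 5 and 243, 334, 257, 506 and 681 CPM in SCVS 1 to 5. SCVS 1 and SCVS 3 were low, SCVS 5 and Naive 5 high, and the groups overlapped. The log2 fold change was -0.17 with a standard error of 0.36 (edgeR, unadjusted p = 0.648). It was -0.02 without Naive 5 and -0.46 without SCVS 5. Uqcrb, which helps form the ubiquinone pocket, had 370 ± 66.4 and 374 ± 138 CPM (SD, n = 5 each), with SCVS 3 highest at 597 CPM and SCVS 4 lowest at 230.5 CPM. Uqcr11, a small accessory subunit, had 273 ± 67.7 and 257 ± 60.1 CPM (SD, n = 5 each), with 392 CPM in Naive 5. Per kilobase of transcript, complex III genes ranged from 101 CPM for Uqcrc2 to 695 CPM for Uqcrb.

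Complex IV, cytochrome c oxidase, had 19 rows, of which 16 were tested. The sum was 2849, 2658, 2908, 3266 and 4762 CPM in Naive 1 to 5 and 3085, 2650, 4381, 2229 and 3292 CPM in SCVS 1 to 5. Naive 5 and SCVS 3 stood above all others and SCVS 4 below. The means were 3288 ± 852.7 and 3128 ± 811.6 CPM (SD, n = 5 each), a log2 ratio of -0.07, or 0.10 without Naive 5. Of the 16 genes, 5 had a higher and 11 a lower fitted level, with a median log2 fold change of -0.07.

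Cox4i1, the form of subunit 4 that most tissues use and a regulator of the enzyme through ATP, had 623, 440, 516, 677 and 941 CPM in Naive 1 to 5 and 590, 472.5, 577, 390 and 692 CPM in SCVS 1 to 5. Naive 5 was high, SCVS 4 low, and the groups overlapped. Its log2 fold change was -0.27 with a standard error of 0.29 (edgeR, unadjusted p = 0.361), and -0.08 without Naive 5. Cox6a1 had 597 ± 149 and 574 ± 101 CPM (SD, n = 5 each) and, per kilobase of transcript, the highest level of the complex at 1025 CPM. Cox6b1, which faces the intermembrane space where cytochrome c docks, had 384 ± 109 and 386 ± 111.5 CPM (SD, n = 5 each), with log2 fold changes of -0.10 for Cox6a1 and -0.02 for Cox6b1. Cox7c, a small subunit of the same enzyme, had 22.8, 15.5, 31.5, 19.1 and 29.8 CPM in naive and 59.0, 8.54, 66.6, 8.54 and 24.9 CPM in SCVS replicates. SCVS 1 and SCVS 3 were high and SCVS 2 and SCVS 4 low, a wider range than in naive mice. The fitted log2 fold change was 0.47 with a standard error of 0.80 (edgeR, unadjusted p = 0.565). It was 0.03 without SCVS 3 and -0.03 with limma and voom. With 53.0 CPM per kilobase of transcript, against a median of 400.5 CPM for the complex, Cox7c was the lowest of the 11 genes with a mean of at least 20 CPM. Near-identical copies of Cox7c exist in the genome, among them Cox7c-ps1 with 8 to 103 counts per replicate, so its level is uncertain where the counting could split such reads.

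Complex V, the ATP synthase, had 18 rows, of which 17 were tested. The sum was 3763, 4230, 4031, 4339 and 6811 CPM in Naive 1 to 5 and 5152, 4155, 4821, 3728 and 4999 CPM in SCVS 1 to 5. Naive 5 was far above the rest, the lowest values were those of SCVS 4 and Naive 1, and the groups overlapped. The means were 4635 ± 1236 and 4571 ± 605.6 CPM (SD, n = 5 each), a log2 ratio of -0.02, or 0.16 without Naive 5. Fitted levels were higher for 6 genes and lower for 11, with a median log2 fold change of -0.03.

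Atp5b, the catalytic beta subunit, had the highest mean CPM of all subunit genes. It reached 883.5, 958, 899, 1194 and 1691 CPM in Naive 1 to 5 and 1474, 1122, 638, 1153 and 1338 CPM in SCVS 1 to 5. SCVS 3, high for most of the chain, was the lowest replicate here, and Naive 5 the highest. The log2 fold change was -0.02 with a standard error of 0.29 (edgeR, unadjusted p = 0.942). Atp5a1, the alpha subunit that alternates with beta in the catalytic ring, had 569 ± 201 and 495 ± 118 CPM (SD, n = 5 each), and it too was lowest in SCVS 3, at 318 CPM. Atp5j, part of the stalk that holds the ring still, had 498 ± 97.4 and 484 ± 124.5 CPM (SD, n = 5 each). The log2 fold changes were -0.24 for Atp5a1 and -0.08 for Atp5j, and -0.01 and 0.03 without Naive 5. Atp5l, subunit g of the membrane part, was low, with 8.06 to 39.4 CPM in naive and 9.97 to 22.1 CPM in SCVS replicates. Atp5l also has related copies, of which Atp5l2-ps had 2 to 16 counts and Atp5l-ps1 0 to 9 counts per replicate, and its level is uncertain for the same reason as that of Cox7c.

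**Figure D2:**
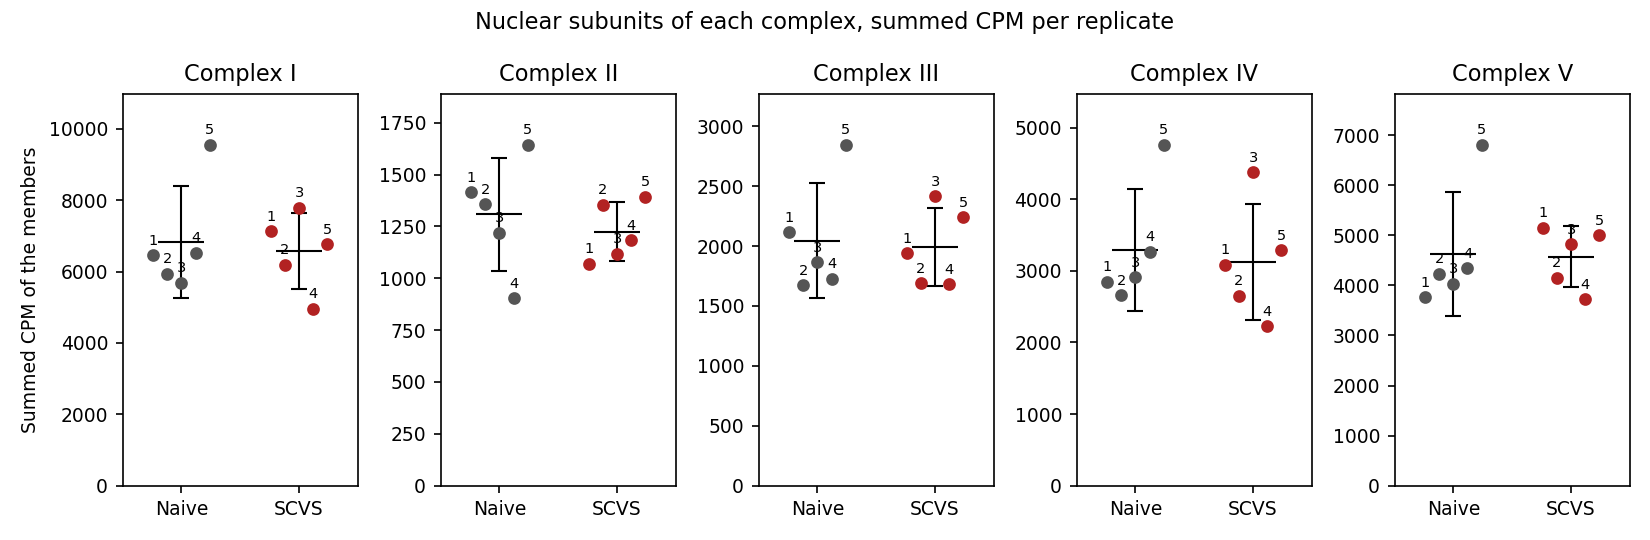
Summed CPM of the subunit genes of each complex (y axis, from 0, a scale for each panel) in the naive and SCVS groups (x axis). Points are replicates with their numbers, and bars give the mean and SD of 5; Naive 5 is the highest point in every panel, and the groups overlap in every panel.

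The share of the chain taken by each complex was then compared between the groups. Complex I made up 37.8 ± 1.16% of the summed CPM in naive and 37.5 ± 1.33% in SCVS mice (SD, n = 5 each). Complex V made up 25.5 ± 1.64% and 26.2 ± 1.71%, complex IV 18.1 ± 1.12% and 17.7 ± 2.12%, complex III 11.3 ± 1.00% and 11.4 ± 0.803%, and complex II 7.33 ± 1.39% and 7.15 ± 1.46% (SD, n = 5 each). These differences were smaller than the SD of either group.

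Subunits that exist in several isoforms were next compared as shares of the counts of their isoform group. Cox4i1 took 98.9 ± 0.986% of the Cox4 counts in naive and 99.2 ± 0.615% in SCVS mice (SD, n = 5 each). Cox4i2, the form favoured at low oxygen and in pericytes and lung, had 28, 76, 189, 125 and 0 counts in Naive 1 to 5 and 0, 28, 108, 42 and 94 counts in SCVS 1 to 5. It was absent at this depth from Naive 5 and SCVS 1, and no group stood out. Its log2 fold change was -0.40 with a standard error of 1.79, and it was 0.11 without Naive 3. Ndufa4l2, a relative of Ndufa4 that is induced by low oxygen and found in mural cells, had 133, 0, 567, 47 and 0 counts in naive and 281, 1, 72, 2 and 82 counts in SCVS replicates. Naive 3 and SCVS 1 were high, and 4 replicates had at most 2 counts. The log2 fold change was -0.78 with a standard error of 2.07, and it was 0.69 without Naive 3 and 0.56 with limma and voom. The 8 mural genes looked at (Pdgfrb, Rgs5, Kcnj8, Abcc9, Notch3, Acta2, Myh11 and Higd1b) were all found and tested, with Rgs5 the most abundant. They summed to 7598, 1195, 818, 3785 and 5078 CPM in Naive 1 to 5 and 1154, 5936, 3293, 3079 and 475.3 CPM in SCVS 1 to 5. Naive 3 and SCVS 1, the replicates with the highest Ndufa4l2 counts, were among the 3 with the lowest mural sums, which are mostly Rgs5. The other mural genes did not share the order of the sum. Naive 3 had 607 counts of Pdgfrb, 290 of Notch3, 456 of Abcc9, 670 of Acta2, 10 of Kcnj8 and 0 of Myh11 and Higd1b. SCVS 1 had 78 counts of Pdgfrb, 2 of Notch3, 163 of Abcc9, 1194 of Acta2, 546 of Kcnj8, 0 of Myh11 and 43 of Higd1b. The part of mural cells in the reads on Ndufa4l2 and Cox4i2 was not tested. Naive 5 had 67407 counts of Rgs5, 276 of Acta2, 1 of Kcnj8 and 0 of the remaining 5. Pdgfrb was also at 0 in Naive 4, SCVS 3 and SCVS 4, as was Higd1b. Rgs5 had 48714, 39561 and 39691 counts there, Kcnj8 1241, 421 and 855, and Abcc9 1075, 334 and 41. Notch3 had 140, 6 and 139 counts, Acta2 201, 250 and 21, and Myh11 0, 14 and 0. Cox4i2 had 125, 108 and 42 counts in these replicates. Ndufa4l2 had 47, 72 and 2 counts, the last under the floor of 3. An exon of Shmt2 overlaps Ndufa4l2 on the opposite strand, so its reads are uncertain too.

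Among isoforms of striated muscle, heart and fat, Cox6a2 and Cox7a1 were scarce, while Cox8b reached 78.3 CPM in Naive 5. Cox6a2, the muscle form of subunit 6a, had 6 counts in Naive 4 and 0 in every other replicate. Cox7a1, the muscle and brown fat form of subunit 7a, had 29, 39, 58, 54 and 88 counts in Naive 1 to 5 and 166, 0, 113, 0 and 0 counts in SCVS 1 to 5. It was present in every naive replicate and in only SCVS 1 and SCVS 3 of the stressed group. Within the SCVS group, 0 counts in some replicate and at least 100 in another occurred for 32.5% of all genes tested. Within the naive group this share was 34.8%. The mean of Cox7a1 was 4.11 ± 1.51 CPM in naive and 4.19 ± 5.81 CPM after SCVS (SD, n = 5 each). The log2 fold change of 0.01 had a standard error of 1.97. Its sign was not stable, with -0.81 without SCVS 1 and -3.44 with limma and voom. Cox7a2, the form of most tissues, took 55.4 ± 8.84% and 58.3 ± 5.67% of the Cox7a counts, and Cox7a2l, which joins complexes III and IV into supercomplexes, 43.6 ± 8.99% and 40.7 ± 4.57% (SD, n = 5 each). Their log2 fold changes were -0.03 and -0.12, with standard errors of 0.31 and 0.38.

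Cox8b, another muscle and brown fat form, had 92, 17, 2, 89 and 1044 counts in Naive 1 to 5 and 81, 130, 342, 17 and 59 counts in SCVS 1 to 5. Naive 5 held most of the naive counts, and Cox8b took 10.4% of the Cox8 counts there, against at most 5.19% in any SCVS replicate. The log2 fold change was -0.93 with a standard error of 1.49 over all replicates, 1.26 without Naive 5 and 0.69 with limma and voom. Among the 4 fat genes (Ucp1, Cidea, Adipoq and Plin1), Cidea was the most abundant and the list summed to 7.01, 0.470, 0.0716, 10.2 and 56.9 CPM in Naive 1 to 5 and 0.0710, 9.94, 19.5, 0.0756 and 0 CPM in SCVS 1 to 5. Naive 5, with the highest Cox8b, also had the highest Cidea, with 759 counts, while Ucp1, Adipoq and Plin1 had 0 counts there. Of 8 striated muscle genes, Mylpf was the most abundant, Myl1 had no read in any replicate, and the sum was highest in Naive 1 with 73.6 CPM, against 21.2, 10.3, 0 and 0.375 CPM in Naive 2 to 5 and 15.5, 15.0, 25.5, 16.2 and 5.31 CPM in SCVS 1 to 5. Whether other cells contributed to the reads on Cox8b or Cox7a1 was not tested.

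Cox6b2, the testis form of subunit 6b, had 331, 38, 0, 44 and 137 counts in Naive 1 to 5 and 295, 0, 244, 0 and 309 counts in SCVS 1 to 5. In both groups some replicates had over 100 counts and others none, and it took between 0% and 10.6% of the Cox6b counts. The fitted log2 fold change was 0.53 with a standard error of 2.03, and it was 1.81 without Naive 1, 0.03 without SCVS 5 and -0.53 with limma and voom. Cox7b2 and Cox8c, both known from testis, had no read in any replicate, and Cox7b and Cox8a carried their groups. Cox8a had 380 ± 167.5 and 350 ± 119 CPM (SD, n = 5 each), with a log2 fold change of -0.15 and a standard error of 0.36. Cox7b had 143 ± 50.6 and 156 ± 85.2 CPM (SD, n = 5 each), with a log2 fold change of 0.11 and a standard error of 0.43.

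The c ring of the ATP synthase, which turns as protons pass, is encoded by 3 genes whose mature proteins are the same. Atp5g3 took 76.1 ± 6.75% of their counts in naive and 74.3 ± 4.59% in SCVS mice, and Atp5g1 23.1 ± 6.89% and 24.7 ± 5.70% (SD, n = 5 each). Their log2 fold changes were -0.12 and -0.03, with standard errors of 0.37 and 0.42. Atp5g2 had 0, 81, 1, 113 and 16 counts in naive and 22, 66, 258, 3 and 5 counts in SCVS replicates. It was never above 3.04% of the group, and its log2 fold change of 0.87 had a standard error of 1.85 and was -0.83 without SCVS 3. Per kilobase of transcript, the levels over all replicates were 481.8 CPM for Atp5g3, 179.5 CPM for Atp5g1 and 6.89 CPM for Atp5g2.

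Apart from Cox6a2, the rows that did not pass the filter were Ndufa11b, Ndufs6b, Cox7b2, Cox8c and a second Atp5o row with another identifier. Ndufs6b had 1 count in Naive 4, and the other 4 had no read in any replicate, which with the floor of 3 counts allows up to 0.3005 CPM in the shallowest replicate. Ndufb4c and Cox6c2 passed with 10 to 60 and 8 to 28 counts. Their levels are uncertain, because each is a close copy of an abundant subunit gene. Exons of 20 subunit genes overlap an exon of another gene, and reads from these stretches cannot be assigned with certainty.

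The subunit genes varied less between replicates than most genes in these libraries, and their levels were higher. The median of the mean CPM was 182.7 for the 83 genes and 21.0 for all genes tested, and 195.2 against 53.9 among those with a mean of at least 20 CPM. Spread, zeros and high counts depend on level, and the lists were not matched for it. The coefficient of variation (SD divided by mean) of CPM had a median of 0.332 over the 83 genes in naive and 0.325 in SCVS mice, against 0.935 and 0.866 over all 14815 genes tested. Among genes with a mean of at least 20 CPM, the medians were 0.315 and 0.316 for 74 subunit genes and 0.647 and 0.595 for 7577 genes. Without Naive 5, the naive median was 0.191 for those 74 genes and 0.587 for those 7577. A replicate with 0 counts occurred for 5 of the 83 subunit genes (6.02%) and for 53.7% of all genes tested. The 5 were the isoform genes Ndufa4l2, Cox4i2, Cox6b2, Cox7a1 and Atp5g2, chosen here after their values were seen. More than 100 counts in every replicate were found for 74 of the 83 (89.2%) and for 23.9% of all genes.

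**Figure D3:**
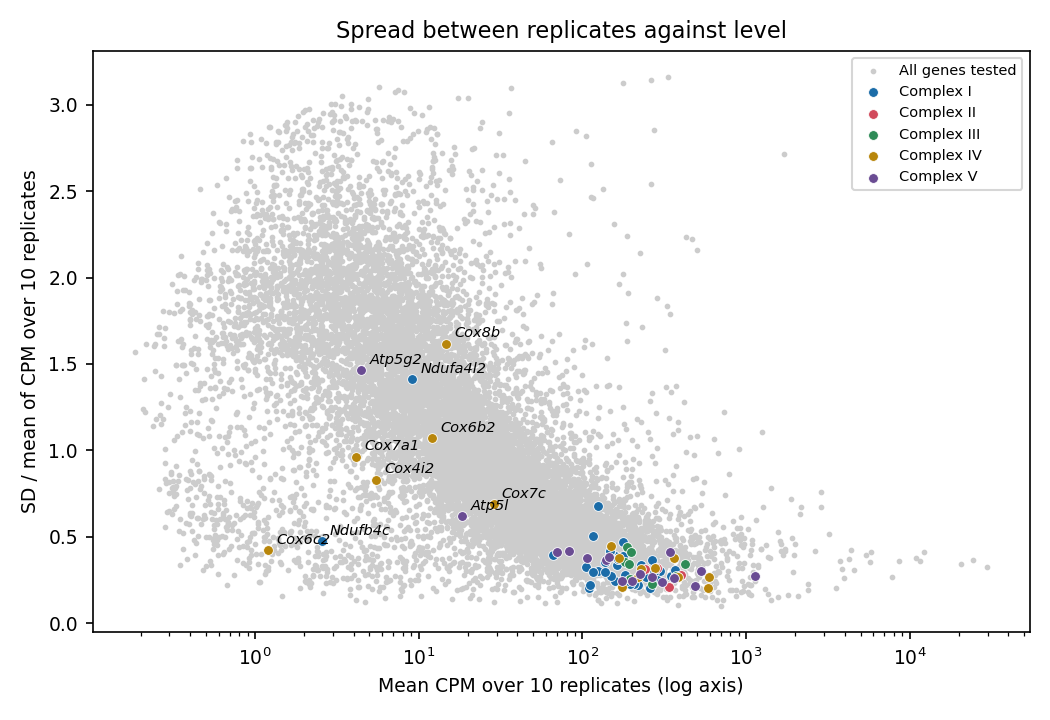
Coefficient of variation of CPM over the 10 replicates (y axis) against mean CPM (x axis, log scale) for the genes tested; grey points are all 14815 genes and coloured points the 83 subunit genes by complex. Most subunit genes lie in the lower part of the cloud, and named points are those with a mean under 20 CPM and Cox7c.

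Subunit genes were also compared in how they rank the replicates. Over the 10 replicates, the median Spearman correlation was 0.35 for 824 pairs within a complex and 0.36 for 1877 pairs between complexes, and -0.04 for 555222 pairs of a subunit gene with a gene outside the chain of at least 20 CPM. Pairs within complex IV had a median of 0.60, within complex V 0.43, within complex III 0.39, within complex I 0.30 and within complex II 0.17. Without Naive 5 these were 0.50, 0.28, 0.16, 0.15 and 0.06 in the same order, and without SCVS 4 they were 0.47, 0.38, 0.48, 0.25 and 0.22. These pairs share the same 10 libraries, their depth and their cell makeup. Without Naive 5 the medians were 0.19 within and 0.22 between complexes, and without both Naive 5 and SCVS 4 they were 0.14 and 0.19, against -0.02 with genes outside the chain. The medians within and between complexes were thus lower without these libraries.

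The 13 mitochondrially encoded subunits, which join the nuclear ones in complexes I, III, IV and V, made up 9.55%, 5.29%, 5.69%, 7.76% and 11.6% of counts in Naive 1 to 5 and 5.92%, 2.79%, 10.5%, 7.69% and 9.85% in SCVS 1 to 5. The lowest was SCVS 2, where the nuclear genes made up 1.60% of counts, close to the 1.57% to 1.68% of Naive 1 to 4. The ratio of mitochondrial to nuclear subunit counts was 4.38 ± 0.953 in naive and 4.19 ± 1.65 in SCVS mice (SD, n = 5 each), with 1.74 in SCVS 2. Without SCVS 2 the SCVS ratio was 4.8 ± 1.07 (SD, n = 4), above the naive mean instead of below it. In edgeR, DESeq2 and limma with voom, 0 of the 13 passed the threshold and 0 had an unadjusted p under 0.05, the smallest in edgeR being 0.309.

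Genes that build or complete the chain were described from lists. Of the genes outside the symbol rule, Ndufab1 (the acyl carrier protein of complex I) had a log2 fold change of -0.15, Cyc1 (cytochrome c1 of complex III) 0.30, Atpif1 (the inhibitor of ATP synthase) 0.14 and Cycs (cytochrome c) -0.38, with standard errors of 0.45, 0.37, 0.39 and 0.68. Cyct, the testis cytochrome c, had no read. In edgeR, 0 of 15 tested complex I assembly factors had an adjusted p under 0.1, 0 of 4 for complex II, 0 of 6 for complex III, 0 of 22 for complex IV and 0 of 4 for complex V. At an unadjusted p under 0.05, edgeR, DESeq2 and limma with voom each gave 2 of these 51 genes, against 460 of all 14815, 661 of 13998 and 736 of 14815, and none of the tools called any of the 51. The median log2 fold changes of the lists were -0.24, -0.18, 0.29, -0.11 and 0.18 in that order. Coa1 was not found, and Pet117 had no read.

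These 2 genes were Sdhaf2 and Coa3, singled out after their values were seen. Sdhaf2, which helps attach the flavin to Sdha, had 1018, 2194, 1382, 1853 and 1159 counts in Naive 1 to 5 and 608, 1311, 669, 140 and 311 counts in SCVS 1 to 5. SCVS 4 was lowest and SCVS 2 lay among the naive replicates. The means were 118 ± 35.3 and 49.4 ± 36.4 CPM (SD, n = 5 each), with a log2 fold change of -1.34 and a standard error of 0.53 (edgeR, unadjusted p = 0.027 and adjusted p = 1). Coa3, an early assembly factor of complex IV, had 1685, 2875, 3707, 1872 and 3707 counts in naive and 2120, 1595, 1919, 1808 and 1076 counts in SCVS replicates. Naive 2, Naive 3 and Naive 5 were high, and the groups overlapped. The means were 213.6 ± 62.0 and 136 ± 18.8 CPM (SD, n = 5 each), with a log2 fold change of -0.69 and a standard error of 0.31 (edgeR, unadjusted p = 0.0446 and adjusted p = 1).

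Of 13 regulators of mitochondrial gene expression, all tested, 0 passed the threshold in edgeR, with 6 fitted higher and 7 lower and a smallest unadjusted p of 0.318. DESeq2 and limma with voom also called 0 of the 13, and at an unadjusted p under 0.05 each tool gave 0. Nrf1, an activator of many respiratory genes, had 49.0 ± 43.0 and 53.3 ± 32.0 CPM (SD, n = 5 each), and Tfam, which packages mitochondrial DNA, 26.1 ± 19.2 and 27.3 ± 18.7 CPM (SD, n = 5 each). Ppargc1a, a coactivator of mitochondrial biogenesis, ranged from 0 to 461 counts in naive and from 0 to 1047 counts in SCVS replicates. Gabpa, the DNA-binding part of another activator, had 46.2 ± 37.0 and 20.1 ± 26.7 CPM (SD, n = 5 each), and its exons overlap those of Atp5j on the opposite strand. These transcripts varied more between replicates than the subunit genes did, but their levels were lower and spread depends on level. The highest naive mean among the 13 was 62.1 CPM, for Gabpb1. The median of the mean CPM over all replicates was 182.7 for the 83 subunit genes.

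The promoters of the subunit genes were searched for letters bound by known activators of the chain. RefSeq windows (GRCm38.p6) from 250 bases before to 50 after the start were found for 68 of the 88 member symbols, 73 windows in all. On either strand, GCATGCGC, the core letters of NRF1, were in 10 of 73 member windows (13.7%) and in 2.71% of all 32851 windows. CCGGAAGT, letters of the ETS family to which Gabpa belongs, were in 5 (6.85%) and in 3.89% of all. AAGATGGC, letters of YY1, were in 10 (13.7%) and in 2.75% of all, and in 8 of those 10 they lay after the start on the strand of the gene, as in 31.5% of all windows that hold them. At least 1 of these was present in 24 member windows (32.9%) and in 8.83% of all. Member windows had a median GC content of 57.3%, against 52.7% for all. A match describes letters and not a bound site. Windows not found included those of Atp5a1, Atp5mpl, Cox4i1, Cox4i2, Cox6a2, Cox6c, Cox6c2, Cox8c, Ndufa11b, Ndufa2, Ndufa4l2, Ndufb4c, Ndufb9, Ndufs1, Ndufs6b, Sdhc, Uqcrb, Uqcrc2 and Uqcrq.

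4 windows are shown up to 30 bases after the start, 5′ to 3′ on the strand of the gene, with matches to these letters in capitals. Ndufs3 (chr2:90904692-90904971, minus strand) is the gene whose groups did not overlap, Uqcr11 (chr10:80406792-80407071, minus strand) holds letters of both NRF1 and the ETS family, and Cox8a (chr19:7217587-7217866, minus strand) and Cox8b (chr7:140900417-140900696, minus strand) are the main and the minor gene of 1 subunit.
Ndufs3: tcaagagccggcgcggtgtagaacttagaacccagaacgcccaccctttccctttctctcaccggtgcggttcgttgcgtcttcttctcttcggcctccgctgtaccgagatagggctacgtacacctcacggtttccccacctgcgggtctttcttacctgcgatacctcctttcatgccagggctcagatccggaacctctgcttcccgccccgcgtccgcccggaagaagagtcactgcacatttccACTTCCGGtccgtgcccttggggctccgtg
Uqcr11: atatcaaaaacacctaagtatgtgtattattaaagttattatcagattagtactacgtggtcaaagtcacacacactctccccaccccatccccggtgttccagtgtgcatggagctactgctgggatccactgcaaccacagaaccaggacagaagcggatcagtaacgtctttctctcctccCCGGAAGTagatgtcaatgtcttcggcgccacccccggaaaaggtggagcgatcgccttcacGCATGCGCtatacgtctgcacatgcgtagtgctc
Cox8a: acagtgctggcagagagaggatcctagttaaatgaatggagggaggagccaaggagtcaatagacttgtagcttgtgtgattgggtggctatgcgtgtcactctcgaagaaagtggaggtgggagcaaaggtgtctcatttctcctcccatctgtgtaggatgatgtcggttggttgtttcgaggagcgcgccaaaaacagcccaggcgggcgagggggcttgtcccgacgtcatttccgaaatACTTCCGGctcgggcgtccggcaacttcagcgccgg
Cox8b: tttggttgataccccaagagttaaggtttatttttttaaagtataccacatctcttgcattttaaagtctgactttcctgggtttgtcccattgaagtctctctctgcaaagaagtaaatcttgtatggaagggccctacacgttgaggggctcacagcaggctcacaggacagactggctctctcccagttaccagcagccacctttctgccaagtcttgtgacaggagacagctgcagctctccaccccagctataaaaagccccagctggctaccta
As shown, Ndufs3 and Cox8a each hold 1 match to the ETS letters near the start, on the opposite strand, and Cox8b holds none of the letters searched for. A second match in the Cox8a window begins 31 bases after the start, past the stretch shown.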

How the data were processed

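The authors deposited raw counts, 1 count per gene and replicate. The paper's methods name the mm9 genome, while the submitters' processing notes name GRCm38 with cutadapt 1.9.1, HISAT2 2.0.1, HTSeq 0.6.1 and DESeq2. The counter's settings, the annotation and the use of strand are not given in the sources used here, nor is the cohort or sequencing run of each replicate. The members and lists were chosen with earlier results of these data known.

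SCVS was compared with naive for genes that had over 5 counts in 3 or more of 10 replicates, by edgeR's quasi-likelihood test after TMM normalization, with R 4.3.3 and edgeR 4.0.16. Benjamini-Hochberg adjustment ran over all tested genes, with a threshold of 0.1 on the adjusted p. Sums, shares and spreads were computed from CPM with Python 3.11.15, pandas 2.3.3, NumPy 2.4.6 and SciPy 1.17.1, and plots were drawn with Matplotlib 3.10.9. Levels per kilobase used the shortest GENCODE M1 transcript with the longest coding sequence, found for 84 of the 89 genes. Alternatives were DESeq2 1.42.0, limma 3.58.1 with voom, other size factors, other filters, the replicate number as a block, other scalings and sums of the complexes, and each replicate left out in turn. The fits were tested on simulated data.

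Named genes were, in each complex, the 3 with the highest mean CPM, over all complexes the 3 of smallest p among those fitted higher and among those fitted lower, the genes of the isoform groups and those with no read. Other named genes, the mean of 20 CPM and the counts and spreads without Naive 5 or SCVS 4 were chosen after the values were seen.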

Additional observations from a re-analysis of the deposited data

Results flagged for a closer look

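Replicates were compared on a log scale of CPM in 77 groups of 5. In 6 groups, the distance of the highest or lowest replicate from its nearest neighbour exceeded 0.71 of the range of the group. The count and the shares hold for this scale only. Chance flags about 1 in 20 groups, and these groups share libraries. In 5 of the 6, Naive 5 was the highest naive replicate. On the log scale, the share of the range was 0.735 for the sum of complex I and 0.760 for the sum of complex V. It was 0.759 for Uqcr11, 0.716 for Cox8a and 0.782 for Atp5g3. The remaining gene was Cox6a2, whose 6 counts in Naive 4 were its only reads, which gave 1.000. Naive 5 had the lowest summed endothelial markers and the highest summed neural and glial markers of the 10 replicates, and their part in these values was not tested.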

How the results depend on the processing

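No subunit gene passed the threshold under any alternative run, with edgeR, DESeq2 or limma with voom, or without any single replicate, though DESeq2 gave Cox8b no p. Over all genes, 0 were called with edgeR, 114 with DESeq2 and 2 with limma and voom, and the cause was not tested. The median log2 fold change of the subunit genes, -0.07, was -0.03 with total counts only and -0.10 with DESeq2 or voom. Voom moved the median of all genes from -0.03 to 0.10, a shift of 0.13. The log2 ratios of the summed complexes were negative under each scaling. They were positive for complexes I, III, IV and V without Naive 5 (0.09, 0.11, 0.10 and 0.16) or without SCVS 4 (0.03, 0.02, 0.03 and 0.05), and for III and V without SCVS 2 (0.02 and 0.01), all within 1 SD of the first value.

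Some log2 fold changes changed sign between settings, among them that of Cox7c, which was 0.47 in edgeR. With total counts only they were 0.03 for Ndufa4, 0.02 for Uqcrb, 0.01 for Cox6b1, 0.01 for Cox7a2, 0.03 for Atp5b and 0.01 for Atp5g1. With limma and voom they were 0.56 for Ndufa4l2, 0.03 for Sdhc, -0.53 for Cox6b2, -3.44 for Cox7a1, -0.09 for Cox7b, -0.03 for Cox7c, 0.69 for Cox8b and 0.06 for Atp5g1. For Cox7a1, the value was -0.05 with DESeq2 and with its size factors in edgeR, and -0.01 with more than 5 counts required in at least 5 replicates. The cause was not tested.

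With the replicate number as a block, 0 subunit genes and 0 of all genes were called in edgeR, and the median of the subunit genes was -0.09. The values that changed sign were 0.02 for Ndufa4, 0.09 for Ndufa4l2, -1.19 for Cox6b2, -5.24 for Cox7a1, -0.04 for Cox7b, -0.02 for Cox7c and 0.04 for Atp5g1. Deviations of same-numbered replicates correlated at 0.04, 0.05, -0.02, 0.06 and 0.15 for numbers 1 to 5, with 1 of them over 0.1, and 7 of the 10 replicates correlated best, among the 5 of the other group, with the one of their own number. Replicates with the same number hold other animals, and whether they share a cohort or run is not known.

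Leaving out each replicate in turn moved the median of the subunit genes between -0.19 and 0.09, and 15 of 33 named genes changed sign without Naive 5. The lowest and highest log2 fold changes of the genes that changed sign were those of Atp5b (-0.12 to 0.18), Atp5g1 (-0.18 to 0.27), Atp5g2 (-0.83 to 1.60), Atp5g3 (-0.40 to 0.23), Atp5j (-0.19 to 0.05), Cox4i2 (-0.82 to 0.11), Cox6a1 (-0.22 to 0.06) and Cox6b1 (-0.23 to 0.13). They were also those of Cox7a1 (-0.81 to 0.33), Cox7a2 (-0.25 to 0.15), Cox7a2l (-0.51 to 0.03), Cox7b (-0.26 to 0.36), Cox8a (-0.34 to 0.17), Cox8b (-1.79 to 1.26), Ndufa4 (-0.17 to 0.26) and Ndufa4l2 (-1.68 to 0.69). The rest were Ndufb8 (-0.28 to 0.08), Ndufb9 (-0.31 to 0.01), Ndufv2 (-0.05 to 0.41), Sdhb (-0.20 to 0.0003), Sdhc (-0.23 to 0.10), Uqcr11 (-0.25 to 0.05) and Uqcrb (-0.28 to 0.11). Ndufs3 kept its sign in each case, as did the remaining named genes with a fit. The lowest and highest values were those of Atp5a1 (-0.36 to -0.01), Cox4i1 (-0.39 to -0.08), Cox6b2 (0.03 to 1.81) and Cox7c (0.03 to 0.73). The others were Ndufa10 (-0.74 to -0.43), Ndufc2 (-0.65 to -0.25), Ndufs8 (-0.52 to -0.25), Sdha (-0.37 to -0.1) and Uqcrc1 (-0.46 to -0.02).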
